A study of Mus musculus with 32 samples.

Results

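The genes described here encode the proteins of the mitochondrial ribosome (mitoribosome), and were taken as every gene whose symbol on the array is Mrpl or Mrps followed by a number. They comprised 105 probes of 72 genes, 44 with Mrpl and 28 with Mrps symbols, out of 25697 probes of 18138 genes on the array. Of these, 64 genes (37 Mrpl and 27 Mrps), read by 86 probes, were detected on at least 24 of the 32 arrays and tested, together with the other genes that passed that filter, 7926 in all. Values of a gene are those of its brightest tested probe. The other 8 genes (Mrpl15, Mrpl19, Mrpl21, Mrpl32, Mrpl35, Mrpl39, Mrpl45 and Mrps14) were not tested. Mrpl35 was detected on 18 arrays, and the probes of the other 7 genes on at most 1.

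The mitoribosome sits in the mitochondrial matrix and translates the few mRNAs encoded by mitochondrial DNA, all of which specify subunits of the respiratory chain and ATP synthase. Its RNAs come from mitochondrial DNA, but all of its proteins are encoded in the nucleus, made in the cytosol and imported. Part of them descend from bacterial ribosomal proteins, and the rest were added in the course of mitochondrial evolution. Neurons depend heavily on oxidative phosphorylation.

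Messenger RNA was measured in the frontal cortex (FCtx) of female F1 hybrids of the C57BL/6J and FVB/NJ strains. The 20 ethanol-treated mice could drink 20% ethanol or water from separate bottles in daily limited sessions over 20 days, and were killed on the day after the last session. The 12 controls were untreated, and the age of the mice is not given in the sources used here. The cross is labelled in a single direction, whereas the Methods name both. The tissue was the dorsal part of a coronal slice without olfactory bulb, a mixture of neurons, glia and vessels, so that fewer cells of a type and less RNA per cell cannot be told apart.

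RNA of each mouse was hybridized to 1 Illumina MouseRef-8 v2.0 array, 8 arrays to a chip. Chips 1 and 2 held ethanol-treated mice, chip 4 held controls, and chip 3 held 4 of each. On chip 3 the ethanol-treated mice were at positions A, C, E and G (odd) and the controls at B, D, F and H (even). Therefore treatment and chip cannot be told apart on chips 1, 2 and 4, and treatment and class of position cannot be told apart on chip 3. Between 9480 and 11544 probes were detected per array, with the lowest number on the array of control C66 on chip 4. All levels are on the log2 scale after variance stabilization and quantile normalization, and all adjusted p-values are from limma with Benjamini-Hochberg adjustment over all tested probes.

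The upstream sequences of Mrpl22, Mrpl12 and Mrps7 are given because these members had the lowest adjusted p-values in ethanol-treated mice, and all 3 are on chromosome 11. They are the 250 bases before the transcription start in RefSeq (build GRCm38.p6, plus strand), read 5′ to 3′, at chr11:58171414-58171663 for Mrpl22, chr11:120484387-120484636 for Mrpl12 and chr11:115603890-115604139 for Mrps7. Capitals mark matches, on either strand, to the NRF1 core GCGCANGC, the ETS core CCGGAAG and the GC box GGGCGG of SP1, factors known for controlling nuclear genes of mitochondrial proteins.
Mrpl22: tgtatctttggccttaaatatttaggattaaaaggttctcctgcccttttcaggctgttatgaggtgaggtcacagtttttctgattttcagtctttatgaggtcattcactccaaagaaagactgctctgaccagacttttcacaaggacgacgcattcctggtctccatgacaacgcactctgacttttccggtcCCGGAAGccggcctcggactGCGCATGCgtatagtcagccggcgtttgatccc
Mrpl12: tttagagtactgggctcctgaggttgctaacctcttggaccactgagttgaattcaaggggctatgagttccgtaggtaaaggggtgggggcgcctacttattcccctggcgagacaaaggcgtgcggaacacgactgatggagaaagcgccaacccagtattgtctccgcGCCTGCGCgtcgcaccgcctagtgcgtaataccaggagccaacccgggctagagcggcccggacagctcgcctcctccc
Mrps7: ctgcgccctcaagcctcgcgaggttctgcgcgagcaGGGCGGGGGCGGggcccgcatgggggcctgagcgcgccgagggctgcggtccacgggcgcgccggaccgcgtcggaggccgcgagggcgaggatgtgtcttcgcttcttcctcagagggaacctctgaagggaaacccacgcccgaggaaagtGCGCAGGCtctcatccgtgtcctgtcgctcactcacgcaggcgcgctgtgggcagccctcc

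Upstream of Mrpl22, 1 NRF1 core and 1 ETS core lay close to the start. Mrpl12 had 1 NRF1 core, and Mrps7 had 1 NRF1 core and 2 adjacent GC boxes. Promoter windows, from 250 bases before to 50 after the start, were found for 57 of the 64 tested members by symbol. The NRF1 core was in 26.3% of these and in 10.1% of 27025 promoters of all genes. Those 27025 were not limited to genes tested here, whereas the 57 members were, so the sets compared are unlike. The ETS core was in 38.6% of the members' windows and in 9.12% of all. The YY1 motif AAGATGGC was in 15.8% and 2.88%, the GC box in 50.9% and 35.9%, and the E box CACGTG in 8.77% and 7.24%. Of the 9 members lower in ethanol-treated mice, described next, 6 held the ETS core (Mrpl22, Mrpl34, Mrpl43, Mrpl53, Mrps16 and Mrps18a) and 3 the NRF1 core (Mrpl12, Mrpl22 and Mrps7). The GC box was in 3 of the 9 (Mrpl43, Mrps16 and Mrps7), the YY1 motif in 2 (Mrps18a and Mrps7) and the E box in 0. A match is a description of letters and not a site of binding.

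Over all arrays, 9 of the 64 members were lower in ethanol-treated mice and 0 were higher at an FDR below 1%. Of all genes tested, 5.03% were lower and 3% higher. At an unadjusted p below 0.05, 21 members were lower and 1 was higher, against 17.8% and 13.2% of all genes. The members that fell were Mrpl22, Mrpl12, Mrpl34, Mrps7, Mrpl43, Mrpl11, Mrps18a, Mrps16 and Mrpl53, and their levels were between 1.08-fold and 1.24-fold higher in controls. The difference was negative for 48 of the 64 members, or 75%, against 53.2% of all genes. Its median was -0.056 over the members and -0.0065 over all genes. The count depended on the normalization, on how chips were treated and on 1 array. When arrays were scaled by their median instead of quantile-normalized, 0 members passed by limma and 34 of 64 differences were negative. Over all genes the count fell from 399 to 17 lower and from 238 to 78 higher. The median was then -0.0032 over the members and 0.0335 over all genes. Mrpl22 was then at -0.25 (adjusted p = 0.0106 by limma). With this scaling the array of C66 had a mean deviation of -0.39 over all genes. Median scaling with C66 left out gave a median of -0.0407 over the members. With chip as a fixed block 0 members passed by limma, where 0.063% of all genes were lower and 0.1% higher. As only chip 3 held both groups, the difference in that fit is the one on chip 3. Without the controls of chip 4, 0 members passed, against 1.06% and 0.442% of all genes. With chip as a random block 1 member passed (Mrpl22). Without C66, 5 members passed (Mrpl22, Mrpl12, Mrpl34, Mrps7 and Mrpl43). Shares of all genes were not counted for the random block or without C66.

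**Figure D1:**
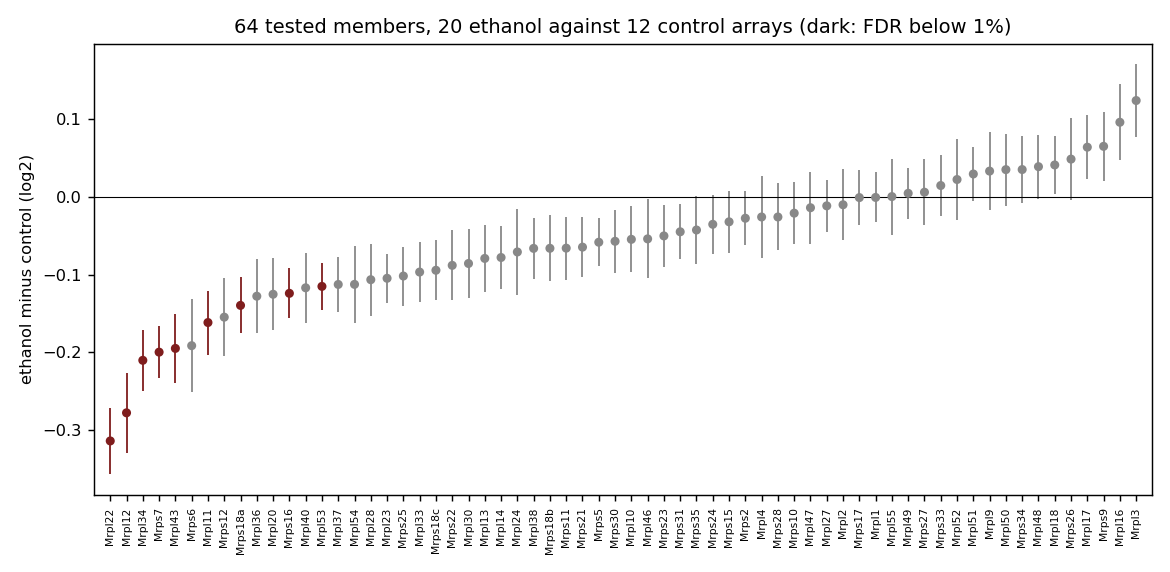
The log2 difference between 20 ethanol-treated mice and 12 controls (vertical axis) for each of the 64 tested members, ordered by size, with bars of 1 standard error. The 9 dark points passed an FDR of 1%, all of them below 0, and the members run from -0.31 (Mrpl22) to 0.12 (Mrpl3).

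Mrpl22 encodes a large subunit protein that lines the tunnel through which the new peptide leaves. Its level in ethanol-treated mice ran from 9.43 over a median of 9.63 to 9.84, and in controls from 9.78 over 9.93 to 10.16. All 20 ethanol-treated mice lay below the median of the controls, 18 lay below the lowest control, and 11 of 12 controls lay above the highest ethanol-treated mouse, so that the groups overlapped only slightly. The difference was -0.31 ± 0.04 (SE, adjusted p = 1.2e-05 by limma), the largest of the set.

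Mrpl12 encodes the protein of the flexible stalk that recruits translation factors, and is also known for binding the mitochondrial RNA polymerase. Its level in ethanol-treated mice ran from 10.56 over a median of 10.74 to 10.97, and in controls from 10.71 over 11.05 to 11.44. All 20 ethanol-treated mice lay below the controls' median, but the 3 controls that did not exceed the highest of them were all on chip 3, the chip with both groups. The difference was -0.28 ± 0.05 (SE, adjusted p = 0.000366 by limma).

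Mrps7 encodes a protein of the head of the small subunit, the counterpart of bacterial S7. Levels ran from 9.84 over 9.97 to 10.10 in ethanol-treated mice and from 9.99 over 10.16 to 10.32 in controls. Here 12 ethanol-treated mice were below the lowest control and 8 controls above the highest ethanol-treated mouse. The difference was -0.20 ± 0.03 (SE, adjusted p = 0.00017 by limma).

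Mrpl34 encodes a small protein of the large subunit with a bacterial counterpart. Levels ran from 9.40 over 9.56 to 9.82 in ethanol-treated mice and from 9.50 over 9.79 to 9.93 in controls. The ranges overlapped widely, with 4 controls above the highest ethanol-treated mouse. The difference was -0.21 ± 0.04 (SE, adjusted p = 0.000455 by limma).

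Mrpl43, a large subunit protein without a bacterial counterpart, differed by -0.19 ± 0.04 (SE, adjusted p = 0.0023 by limma). Its 12 controls ran from 10.19 to 10.63 and its 20 ethanol-treated mice from 10.01 to 10.39. Mrpl11, which forms the base of the stalk, was lower by 0.16 on average, with levels from 9.16 to 9.58 in ethanol-treated mice and from 9.31 to 9.69 in controls. Of the remaining members that fell, Mrps18a, 1 of 3 S18-type proteins, was 10.45 ± 0.07 (SD, n = 12) in controls and 10.31 ± 0.11 (SD, n = 20) with ethanol. Mrps16, a small subunit protein with a bacterial counterpart, was 9.65 ± 0.10 (SD, n = 12) in controls and 9.53 ± 0.07 (SD, n = 20) with ethanol. Mrpl53, a large subunit protein without a counterpart, was 11.04 ± 0.05 (SD, n = 12) in controls and 10.93 ± 0.09 (SD, n = 20) with ethanol. For Mrpl11, Mrpl53 and Mrps16, 19 of 20 ethanol-treated mice lay below the median of the controls, and for Mrps18a 16 did. The adjusted p of these 4 by limma was between 0.0057 and 0.0072, and it exceeded 0.01 for each of them without C66.

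At the other end of the order, Mrpl3, a large subunit protein near the site where peptide bonds form, had the highest difference at 0.12 ± 0.05 (SE, adjusted p = 0.057 by limma). Its levels ran from 10.08 over 10.35 to 10.52 in ethanol-treated mice and from 9.94 over 10.20 to 10.37 in controls. Mrpl16, also of the large subunit, followed at 0.10 ± 0.05 (SE, adjusted p = 0.17 by limma), and the small subunit protein Mrps9 at 0.06 ± 0.04 (SE, adjusted p = 0.32 by limma). The ranges of all 3 overlapped, with 0 controls above the highest ethanol-treated mouse and 0 ethanol-treated mice below the lowest control.

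By subunit, 7 of 39 tested proteins of the large subunit and 2 of 25 of the small subunit were called lower. Mrps18a and Mrps30 are counted with the large subunit, where they are found in mammals. The median difference was -0.066 for the large and -0.045 for the small subunit. Of 40 members with a bacterial counterpart 6 were called lower, and of 22 without one 2 were. The medians of these classes were -0.062 and -0.048. Mrps18a, which was called, and Mrps18b, which was not, are in neither. Of 5 proteins at the exit of the peptide tunnel 1 was called (Mrpl22), and of the 3 stalk proteins 2 were (Mrpl11 and Mrpl12). Differences between these classes were not tested.

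Of the members, 17 had several tested probes. For Mrpl10, Mrps10 and Mrps26 only a dimmer probe was called lower. The clearest disagreement was Mrps26, a small subunit protein without a bacterial counterpart, whose dimmer probe differed by -0.21 ± 0.04 (SE, adjusted p = 0.00098 by limma) and whose brighter probe by 0.05 ± 0.05 (SE, adjusted p = 0.56 by limma). Probes also differed in sign for Mrpl48 (between -0.086 and 0.039 over 3 probes), Mrpl49 (between -0.063 and 0.029 over 4) and Mrps33 (-0.086 and 0.014), none of which was called. Both probes of Mrpl43 were negative, at -0.19 and -0.10, and so were those of Mrps7, at -0.20 and -0.087, but in each pair only the brighter was called.

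On chip 3 alone, where 4 ethanol-treated mice and 4 controls shared a chip, 0 members were called in either direction at an FDR below 1% by limma, against 1.72% of all genes lower and 1.59% higher. At an FDR below 10%, 5 members were lower (Mrpl22, Mrpl23, Mrpl33, Mrpl43 and Mrpl54) and 3 higher (Mrpl47, Mrps26 and Mrps33), against 8.78% and 8.97% of all genes. The dimmer probes of these 3 went the other way, at -0.033 for Mrpl47, -0.072 for Mrps26 and -0.20 for Mrps33. That of Mrps33 itself passed an FDR of 10% (adjusted p = 0.056 by limma). The dimmer probes of Mrpl33 (-0.10) and Mrpl43 (-0.18) were negative like the brighter ones. At an unadjusted p below 0.05 there were 8 lower and 6 higher, against 13.3% and 14.1% of all genes. The median difference was 0.014 over the members and 0.0039 over all genes, and 31 of 64 members were negative.

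On this chip Mrpl22 read 9.70, 9.60, 9.65 and 9.58 in the ethanol-treated mice and 9.97, 9.78, 9.87 and 9.93 in the controls. All 4 ethanol-treated mice were below all 4 controls, and the difference was -0.26 ± 0.06 (SE, adjusted p = 0.011 by limma). This was also so for Mrpl33, Mrpl48, Mrps5 and Mrps18a. For Mrpl49, Mrpl50, Mrps26 and Mrps33 all 4 ethanol-treated mice were above all 4 controls. The share of all genes separated in this way was not counted. Mrpl12 read 10.83, 10.92, 10.97 and 10.77 in the ethanol-treated mice and 10.73, 10.71, 10.99 and 10.81 in the controls. Here the groups overlapped and the ethanol-treated mice had the higher mean, with a difference of 0.07 ± 0.07 (SE, adjusted p = 0.59 by limma). Mrps7 read 10.10, 9.92, 10.01 and 10.04 in the ethanol-treated mice and 10.19, 10.06, 10.06 and 9.99 in the controls, and again the groups overlapped.

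Between chips 1 and 2 (16 ethanol-treated mice) and chip 4 (8 controls), which share no array with chip 3, 12 members were lower and 1 was higher at an FDR below 1%, against 6.59% and 4.72% of all genes. The difference was negative for 54 of 64 members, with a median of -0.085 against -0.013 over all genes. Mrpl12 had the largest, -0.42 ± 0.04 (SE, adjusted p = 2.9e-07 by limma), followed by Mrpl22 with -0.34 ± 0.05 (SE, adjusted p = 4.8e-05 by limma). The higher member was Mrpl3, by 0.19. Members called lower here but not over all arrays were Mrps6, Mrps12, Mrps30, Mrpl20 and Mrpl36, and 7 of the 9 called over all arrays were among the 12. Across the 64 members, which are not independent replicates, the differences on chip 3 and between chips had a Pearson correlation of 0.0689, and 31 of 64 had the same sign. Over all genes the correlation was 0.0892, and 50.7% had the same sign.

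**Figure D2:**
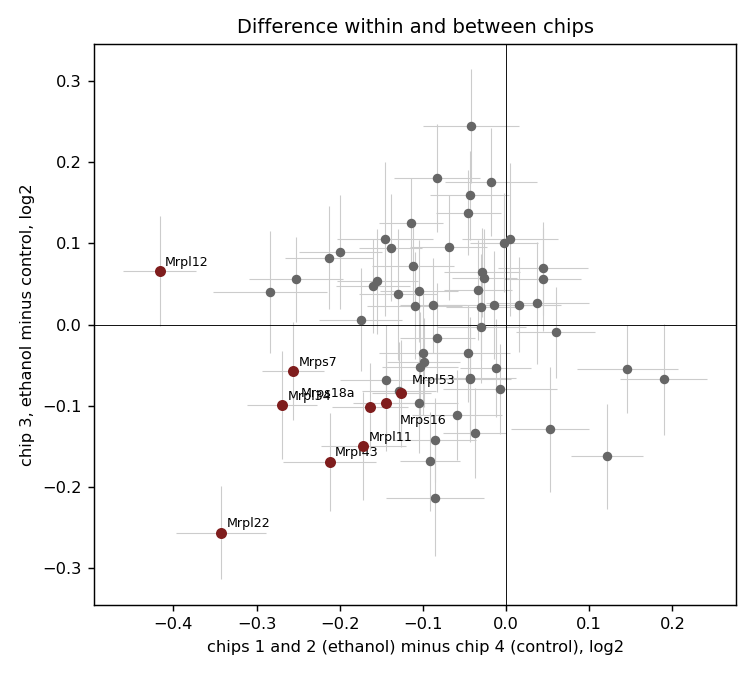
For each of the 64 members, the log2 difference of chips 1 and 2 (ethanol) from chip 4 (controls) on the horizontal axis and that of ethanol from control mice on chip 3 on the vertical axis, with bars of 1 standard error. Most points lie left of 0 but on both sides of 0 vertically. Of the 9 dark points, called over all arrays, 8 are below 0 on chip 3 and Mrpl12 is above. The arrays of chip 3 were among those used to call them, so these signs are not independent of the choice.

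A test of the difference between these 2 effects, over all arrays, called 1 member higher and 0 lower at an FDR below 1%, against 2.09% and 1.43% of all genes. That member was Mrpl12, with a difference of 0.48 ± 0.08 (SE, adjusted p = 0.00053 by limma). For Mrpl22 the effects differed by 0.09 ± 0.09 (SE, adjusted p = 0.58 by limma).

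The controls, which had the same treatment on both of their chips, differed between chips as well. Controls of chip 3 were lower than controls of chip 4 for 4 members and higher for 0 at an FDR below 1%, against 3.42% and 3.07% of all genes. These were Mrpl12 (-0.32 ± 0.06, SE, adjusted p = 0.00062 by limma), Mrps30 (-0.26), Mrps24 (-0.23) and Mrps12, the last just inside the threshold. The median was -0.088 over the members and -0.015 over all genes, and 50 of 64 members were negative. At even positions only, 4 controls of each chip, 52 of 64 members were negative with a median of -0.086, and 8 were lower at an FDR below 10%, against 5.68% of all genes.

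Averaged over the 64 members, each centred over the 32 arrays, the 8 arrays of chip 4 lay between 0.038 and 0.081. The highest of the other 24 arrays was at 0.0039, so that chip 4 did not overlap any other chip. The 4 controls of chip 3 averaged -0.019, and the ethanol-treated mice averaged between -0.015 and -0.028 in every combination of chip and class of position. The range of the chip 3 controls, from -0.061 to 0.0039, overlapped that of the ethanol-treated mice, from -0.085 to 0.0024. For 38 of 64 members (59.4%) the controls of chip 4 had the highest mean of the 5 combinations of group and chip, which was so for 29.1% of all genes. With median scaling, and the mean over all genes subtracted on each array, 7 of the 8 arrays of chip 4 lay above all others and C66, at -0.097, did not.

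**Figure D3:**
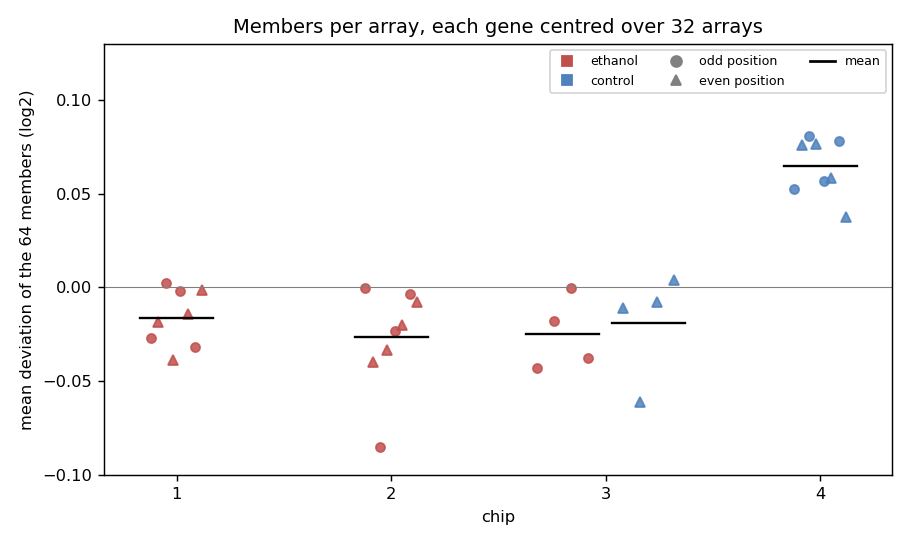
The mean deviation of the 64 members on each of the 32 arrays (vertical axis, log2, each gene centred over all arrays) by chip, with colour for treatment, shape for position and lines for the mean. The 8 controls of chip 4 lie above 0.03, and all other arrays, the 4 controls of chip 3 included, lie below 0.01.

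Without the 8 controls of chip 4, a comparison chosen after the values were seen, 20 ethanol-treated mice stood against the 4 controls of chip 3. Of the members, 0 were lower and 0 higher at an FDR below 1% by limma, against 1.06% and 0.442% of all genes. At an unadjusted p below 0.05 they were 5 and 6, against 11.8% and 11.1% of all genes. The median difference was 0.0051 over the members. All 9 called members kept a negative difference, from -0.06 for Mrpl12 to -0.25 ± 0.06 for Mrpl22 (adjusted p = 0.014 by limma). The 9 were chosen in a comparison that holds these same arrays, so their kept sign is not an independent result.

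**Figure D4:**
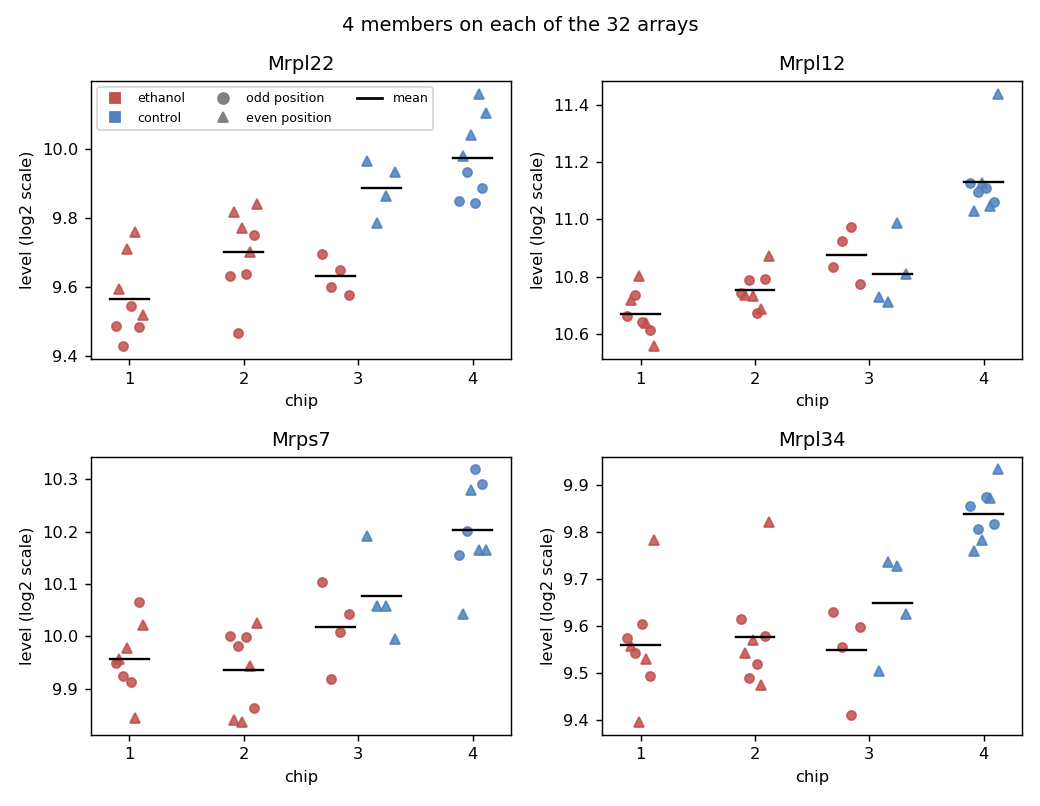
Levels on the log2 scale (vertical axes) of Mrpl22, Mrpl12, Mrps7 and Mrpl34 on the 32 arrays by chip, with colour for treatment, shape for position and lines for the mean. Mrpl22 separates the groups on chip 3 and is higher at even positions on the other chips, whereas Mrpl12 is highest on chip 4 and overlaps on chip 3.

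The class of position on the chip was tested on chips 1, 2 and 4, each of which held a single treatment. At an FDR below 1%, 1 member was lower and 4 were higher at even positions, against 2.04% and 1.56% of all genes. The 4 higher were Mrpl4 (0.25 ± 0.05, SE), Mrpl24 (0.20 ± 0.04), Mrpl43 (0.18 ± 0.04) and Mrpl22 (0.17 ± 0.03, adjusted p = 0.0025 by limma), and the lower was Mrps34 (-0.15 ± 0.04). Mrpl22 averaged 9.49 at odd and 9.65 at even positions on chip 1, 9.62 and 9.78 on chip 2, and 9.88 and 10.07 on chip 4. It was therefore higher at even positions, those of the controls on chip 3, on each of the 3 chips.

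Within a class of positions, the difference of Mrpl22 was -0.30 at odd positions (12 ethanol-treated mice against 4 controls, all of chip 4, adjusted p = 0.0015 by limma) and -0.27 at even positions (8 against 8, adjusted p = 0.024 by limma). At odd positions 9 members were lower at an FDR below 1%, against 1.78% of all genes. At even positions 0 were by limma, against 0.0252% of all genes, and 13 were at an unadjusted p below 0.05, against 9.83%. At an FDR below 10% there were 5 (Mrpl11, Mrpl12, Mrpl22, Mrps7 and Mrps18a), against 2.84% of all genes. With chip as a fixed block together with position, the difference of Mrpl22 was -0.08 (adjusted p = 0.74 by limma) and 0 members passed an FDR of 1%, where 0% of all genes were lower and 0.0252% higher. At an unadjusted p below 0.05, 2 members were lower and 1 was higher, against 4.91% and 4.57% of all genes.

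Correlations between members from mouse to mouse spread to both sides of 0. Over 2016 pairs of members and 32 arrays, centred within group and chip, the median Pearson correlation was 0.0193, beside 0.0001 over all pairs of tested genes, and the quartiles were -0.13 and 0.18 beside -0.16 and 0.16. With Mrpl22, Mrpl43 (0.615) and Mrpl4 (0.515) had the highest values and Mrps34 (-0.59) and Mrps28 (-0.54) the lowest, and values were not centred by class of position. Mrpl40 had the highest median correlation with the other members, 0.109, and Mrps34 the lowest, -0.11. Correlations between tested probes of 1 gene also lay on both sides of 0, from -0.52 for Mrpl49 to 0.52 for Mrps33. Values near 0 between members therefore cannot show that the members do not vary together. Points of a pair share their arrays, and these values are a description.

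Of 6 tested mitoribosome proteins under other symbols, 2 were lower at an FDR below 1%: Aurkaip1, a small subunit protein, by -0.15 ± 0.04 (SE, adjusted p = 0.0098 by limma), and Ict1, a large subunit protein that can release stalled peptides, by -0.11 ± 0.03 (SE, adjusted p = 0.0057 by limma). Aurkaip1 was at 0.07 on chip 3 and -0.25 between chips, and Ict1 at -0.16 and -0.11. Of 16 mitochondrial translation and assembly factors, 9 mitochondrial aminoacyl-tRNA synthetases and 8 genes of mitochondrial transcription and its regulators, 0 passed over all arrays by limma. Their medians were -0.013, -0.029 and 0.035. Among these last 8 genes, 3 differences were negative. The largest was that of Ppargc1a, a coactivator that drives mitochondrial biogenesis, at 0.33 ± 0.09 (SE, adjusted p = 0.011 by limma). Ppargc1a was at 0.33 on chip 3 (adjusted p = 0.018 by limma) and 0.34 between chips (adjusted p = 0.04 by limma). With chip as a fixed block together with position, Ppargc1a was at -0.0335 ± 0.14 (SE, adjusted p = 0.96 by limma). Of 31 complex I genes tested 3 were lower and 1 higher with a median of -0.073, and of 49 cytosolic ribosomal protein genes 6 were lower and 0 higher with a median of -0.047. Over all genes 5.03% were lower and 3% higher, with a median of -0.0065. On chip 3 the medians were -0.046 for complex I and -0.068 for cytosolic ribosomal proteins. Between chips they were -0.074 and -0.049.

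Some markers of cell types also differed. Of 7 neuronal markers tested 3 were lower, namely Tbr1 (-0.33 ± 0.06, SE), Slc17a7 (-0.25 ± 0.06) and Nrgn (-0.18 ± 0.04), whereas Gad1 was at 0.30 ± 0.09 (SE, adjusted p = 0.0145 by limma), Syt1 at 0.12, Camk2a at -0.09 and Thy1 at -0.09. The summed signal of the list ran from 43400 to 52020 in ethanol-treated mice and from 44760 to 52290 in controls. Of 7 astrocyte markers 1 was higher, the water channel Aqp4 (0.49 ± 0.10, SE), while 4 of the 7 differences were negative and the median was -0.007. Of 8 oligodendrocyte, 7 microglia, 2 blood, 2 olfactory bulb and 3 striatum markers, 0 passed an FDR of 1% by limma over all arrays. On chip 3, where treatment coincides with class of position, Slc17a7, Tbr1 and Cnp were lower at an FDR below 1% by limma. Gad1, Aqp4, Slc1a3, Gjb6 and Doc2g were higher there, beside 1.72% of all genes lower and 1.59% higher. Medians on chip 3 were -0.17 (neuronal), 0.06 (astrocyte), -0.38 (oligodendrocyte), -0.0078 (microglia), -0.05 (blood), 0.36 (olfactory bulb) and -0.21 (striatum). The part of these markers in the members' differences was not tested.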

How the data were processed

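The deposited table was not normalized. The intensities deposited in it are bead averages per probe and array on a linear scale. Per probe, the authors gave a detection p-value and, as other deposited values, the bead number and the standard error among beads. The background step of the array software is not given in the sources used here. The submitters' processing notes name lumi and limma. All columns were matched to a mouse, with 0 left over.

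The signals were transformed by a variance-stabilizing function after that of lumi, rewritten from its description, and quantile-normalized in R 4.3.3 (package data.table, version 1.17.8). A probe was tested if its detection p-value was below 0.01 on 24 or more arrays, which left 10187 of 25697. These were compared by limma 3.58.1 without covariates. The transform and the limma comparisons of all arrays and of chip 3 were tested on simulated data with known changes. The number of arrays limits the precision. Promoter sequences came from RefSeq and were matched by symbol, and plots were drawn with matplotlib 3.10.9 under Python 3.11.15.

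The members named in the text are Mrpl22, those called at an FDR below 1% over all arrays, the 3 with the largest and the 3 with the smallest difference, those whose probes differ in sign, and called genes of the related and marker lists. The 7 tested neuronal markers are all named, called or not. Members named for other comparisons, Ppargc1a and the markers named for chip 3 were chosen after their values were seen. The members, lists and tests were chosen with earlier results of these data known. Labels do not say in which RNA extraction batch a mouse was, so that batch was not tested. Alternatives were the log2 signal, normexp background with an offset of 16, median scaling, every probe or only those found on all 32 arrays, chip as a random or fixed block, position, array weights, leaving out C66 or each array of chip 3, other thresholds, and the probe with the lowest p-value. Leaving out the controls of chip 4, normalizing chip 3 by itself and median scaling without C66 were added after seeing the data.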

Additional observations from a re-analysis of the deposited data

Results flagged for a closer look

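For Mrpl12, the difference of ethanol from control mice on chip 3, where treatment coincides with class of position, exceeded the contrast of chips 1 and 2 with chip 4 by 0.4827 (adjusted p = 0.00053 by limma).

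Among the 80 groups that the 5 combinations of chip and treatment gave for 16 named members, 8 held a mouse far from the others, where chance gives about 1 in 20. Control C66 on chip 4 read 11.4388 for Mrpl12, against 11.03 to 11.13 in the other 7 controls. The same mouse read 8.823 for Mrpl16, against 9.07 to 9.15, and 10.2508 for Mrps26, against 10.37 to 10.46. Ethanol-treated mouse A46 on chip 3 read 10.1522 for Mrpl48, against 10.38 to 10.42 in the other 3, and 10.1945 for Mrps18a, against 10.31 to 10.33. Among ethanol-treated mice of chip 2, A45 read 9.8206 for Mrpl34, against 9.48 to 9.62, and A34 read 10.5336 for Mrps18a, against 10.18 to 10.33. On chip 1, A9 read 10.6253 for Mrps26, against 10.27 to 10.43. The array of C66 also had the lowest number of probes detected, 9480, and the lowest median signal, 146.2. Its part in these values was not tested.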

How the results depend on the processing

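The count of members lower over all arrays, 9 in the main comparison, was 8 on the log2 signal and 6 with normexp background. It was 7 over all probes, 9 over probes detected on all arrays, 7 with position as a covariate and 8 with array weights. At an FDR of 10% and a change of 1.1-fold or more the count was 9. When the probe of lowest p-value stood for a gene, it was 12. The count was 5 without C66, 1 with chip as a random block and 1 with median scaling without C66. It was 0 with median scaling, with chip as a fixed block, with that block and position, and without the controls of chip 4. In each of these settings 0 members were higher. The members counted were not always the same. With position as a covariate, 6 of the 9 were still called. At an FDR of 10% and 1.1-fold, Mrps6 and Mrps12 came in and Mrpl53 and Mrps16 dropped out. Of 7926 genes, 399 were lower in the main comparison, 383 on the log2 signal, 349 with normexp background and 17 with median scaling. With position as a covariate 5.1% of genes were lower, with chip as a fixed block 0.063%, and with that block and position 0%. Without the controls of chip 4, 1.06% were lower. Shares of all genes were not taken in the other settings. The members' median difference was -0.0032 with median scaling and -0.0407 with median scaling without C66. It was 0.0139 with chip as a fixed block and 0.0051 without the controls of chip 4. Median scaling moved the median of all genes to 0.0335, and 43 of 64 members lay below it. On chip 3, 0 members passed an FDR of 1% in either direction with any of its 8 arrays left out, on the log2 signal, with normexp background, with median scaling or normalized by itself, and 5 lower and 3 higher passed an FDR of 10%. Between chips, the 12 lower became 1 with median scaling, and the 1 higher became 0 on the log2 signal, with normexp background and with median scaling. The 1 member lower at even positions became 0 in the same 3 settings, and the 4 higher became 0 with median scaling. Under these changes of normalization, shares of all genes were not counted between chips or by position. With chip as a fixed block the difference of Mrpl12 was 0.0661, of Mrpl16 -0.0544, of Mrpl3 -0.0672 and of Mrpl48 -0.1623. These are the differences on chip 3, the only chip with both groups, where treatment and class of position cannot be told apart. With position added to that block it was 0.0948 for Mrpl12, -0.0969 for Mrpl16, -0.092 for Mrpl3, 0.0094 for Mrpl43, -0.1139 for Mrpl48 and -0.03 for Mrps9. Mrpl48 was at -0.0054 with chip as a random block and -0.0902 without the controls of chip 4. Mrpl49 was at -0.0138 with position and -0.0045 with array weights, and Mrps33 at -0.0116 with position and -0.011 with median scaling without C66. The causes were not tested. No paired analysis was possible because mouse numbers are not shared between groups.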
